A study of Mus musculus with 28 samples.

Results

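The genes described here are 10 markers of endothelial cells and of the blood-brain barrier: Pecam1, Cdh5, Emcn, Kdr, Flt1, Tek, Tie1, Cldn5, Slco1a4 and Abcb1a. All 10 were found among the 18193 genes with a probe set of their own, with 15 probe sets among them, and each gene was read from the probe set with the highest mean. A filter on dim genes kept 13931 genes, among them 9 of the 10. Tie1 fell below it and is given by its values only.

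The vessels of the brain are lined by endothelial cells that are sealed to each other by tight junctions and that carry transporters on their surface. This barrier keeps most blood-borne compounds out of brain tissue and pumps drugs and metabolites back into the blood. It is induced and held by signals from neighbouring cells, among them WNT ligands, pericytes and astrocyte endfeet. Tumours recruit vessels through VEGF and angiopoietin ligands, whose receptors sit on the same endothelial cells, and tumour vessels can lack parts of the barrier.

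Expression was measured on 28 one-colour Affymetrix mouse genome arrays, of 10 medulloblastomas (MB, a tumour of the cerebellum), 6 gliomas (GL) and 12 normal brains (NB). The medulloblastomas were 5 of genotype hGFAP-Cre::p53-/-; Rictor-/- (Rictor-null below), 2 of hGFAP-Cre::p53-/-; Rictor+/- (Rictor-heterozygous) and 3 of hGFAP-Cre::p53-/- (p53-null only). The gliomas were 1 Rictor-null, 4 Rictor-heterozygous and 1 p53-null only. The normal brains were 5 Rictor-null, 5 Rictor-heterozygous, 1 p53-null only and 1 wild type, so 27 of the 28 arrays carry the p53 status p53(-/-) in the labels, which do not say in which cells of the tissue p53 and Rictor were lost. The Cre transgene is driven by a human GFAP promoter, which is active in neural progenitors and glia and is not an endothelial promoter. Rictor is a subunit of the kinase complex mTORC2. Arrays are named by tissue and the code in their title, as in MB C6. The labels give no ages and do not state whether arrays of a group are separate animals, so the tests below measure only how far these arrays spread. Tumour pieces held at least 70% tumour cells per the labels' protocols, and the labels describe no sorting of cells. In such bulk samples fewer endothelial cells and less RNA per endothelial cell cannot be told apart.

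The arrays were scaled to one trimmed mean, and their medians lay between 18.8 and 27.8. The labelled tissues were checked on marker genes. Atoh1, a granule neuron precursor gene, lay between 493.3 and 1678.9 in 9 of the 10 medulloblastomas, at 37.5 in MB C6 and between 1.4 and 176.2 in normal brain. MB C6 also had 1324.3 for Gabra6, a gene of mature cerebellar granule neurons. Olig2, a glial lineage gene, was 1073.3 to 1780.6 in glioma, against 34.9 to 239.9 in normal brain. Ttr, the main transcript of choroid plexus, passed 1000 in 2 medulloblastomas (B4 and A5), in no glioma and in 8 of 12 normal brains, so the normal brains differed in this marker. The endothelial marker Cdh5 was read from the brighter of its 2 probe sets. It averaged 36.9 ± 8.36 in medulloblastoma (n = 10), 33.5 ± 9.36 in glioma (n = 6) and 37.3 ± 13.6 in normal brain (n = 12). Intensities with ± are mean ± SD, here and below.

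Up to 250 bases before the annotated start of each gene were read from RefSeq for GRCm38.p6, where 8 of the 10 genes had a window. Both barrier transporters that changed in the tumours and Cldn5, a barrier gene that did not pass the test, are shown for comparison, each 5′ to 3′ on the strand of its gene. The Slco1a4 window is shorter at chr6:141856285-141856470 (minus strand), that of Abcb1a lies at chr5:8566841-8567090 and that of Cldn5 at chr16:18776597-18776846 (both plus strand). Capitals mark matches, on either strand, to the ETS core AGGAAG, the TCF/LEF core TCAAAG or the GC box GGGCGG.
Slco1a4: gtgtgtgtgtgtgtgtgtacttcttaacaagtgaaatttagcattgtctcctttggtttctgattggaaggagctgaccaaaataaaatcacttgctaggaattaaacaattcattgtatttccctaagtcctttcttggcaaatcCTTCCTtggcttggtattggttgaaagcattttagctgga
Abcb1a: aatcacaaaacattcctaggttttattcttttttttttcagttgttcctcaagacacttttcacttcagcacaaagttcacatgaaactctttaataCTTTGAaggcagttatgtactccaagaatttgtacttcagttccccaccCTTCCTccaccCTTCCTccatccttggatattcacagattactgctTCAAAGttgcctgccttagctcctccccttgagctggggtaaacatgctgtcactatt
Cldn5: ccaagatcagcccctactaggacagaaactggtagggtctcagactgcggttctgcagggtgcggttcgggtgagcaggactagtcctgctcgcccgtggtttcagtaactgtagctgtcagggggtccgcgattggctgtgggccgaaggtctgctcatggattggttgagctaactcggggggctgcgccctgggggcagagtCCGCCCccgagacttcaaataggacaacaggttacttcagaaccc
The ETS core, which many endothelial promoters hold, was found in 5 of the 8 windows (Flt1, Tie1, Emcn, Slco1a4 and Abcb1a) and in 29.5% of all 32851 windows. The TCF/LEF core, bound by the nuclear factors of WNT signalling, was found in 1 of 8 (Abcb1a, with 2 matches), against 13.8% of all. The GC box was found in 3 of 8 (Kdr, Flt1 and Cldn5), against 32.7%. The nuclear receptor core AGGTCA was found in 1 of 8 (Emcn), against 14%. None of the 4 motifs lies within another, and a match is no evidence that a factor binds there.

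Both transporters and the VEGF receptor Flt1 were lower in the tumours, while the pan-endothelial genes Pecam1, Cdh5 and Emcn did not pass the test. Slco1a4 fell to 0.404 times normal brain in medulloblastoma and 0.496 times in glioma, Abcb1a to 0.459 and 0.515 times, and Flt1 to 0.562 and 0.664 times. Kdr rose to 1.66 times normal brain in glioma, a rise that did not pass with the title code as a replicate block. These falls no longer passed without the arrays rich in choroid plexus transcripts, as given after the single genes. Differences below are on the log2 scale, and a fold is a ratio on the log2(intensity + 6.3) scale, which understates the change of dim genes. In medulloblastoma against normal brain 0 members rose, 3 fell and 6 did not pass (limma, adjusted p under 0.05). Over all tested genes 64.2% were called in that comparison, 32.2% higher and 32% lower. In glioma against normal brain 1 member rose, 3 fell and 5 did not pass, where 53.9% of all genes were called, 28.4% higher and 25.5% lower. The shares of members called, 3 of 9 and 4 of 9, were thus no larger than those of all genes. The median log2 difference of the 9 members was -0.10 in medulloblastoma (0.01 over all genes) and -0.45 in glioma (0.05 over all genes).

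**Figure D1:**
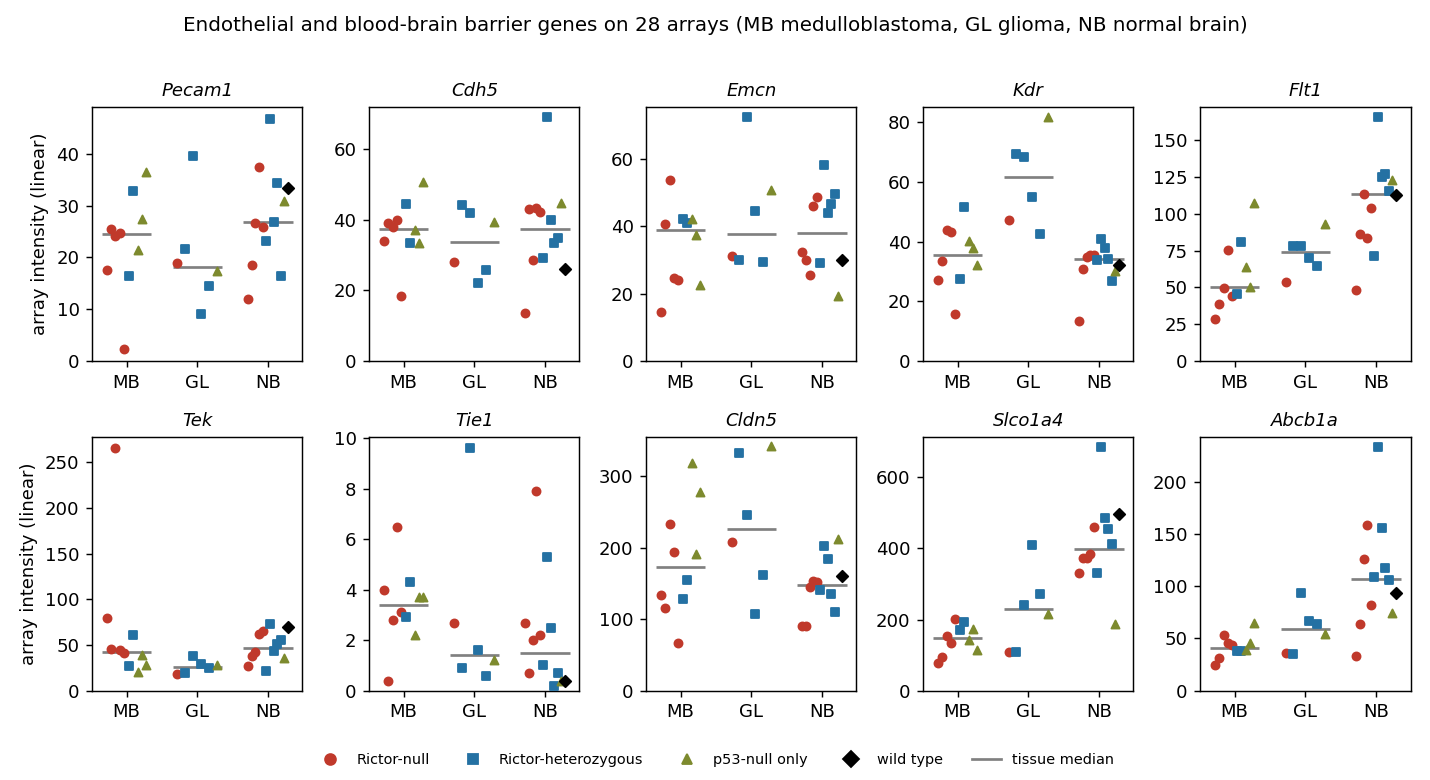
Intensity (linear, vertical axis from 0) of each of the 10 genes on all 28 arrays, by tissue; symbols give the genotype and grey lines the tissue median. Slco1a4 lay between 77.3 and 202.7 in medulloblastoma, 108.2 and 410.5 in glioma and 186.2 and 684.2 in normal brain, while Kdr in all 6 gliomas lay above all 12 normal brains.

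Of the pan-endothelial genes, Pecam1 (probe set 1421287_a_at; chr11:106654213-106715281), the adhesion molecule CD31 at endothelial contacts, had 2.3 to 36.5 in medulloblastoma (median 24.45), 9 to 39.6 in glioma (18.15) and 12 to 46.8 in normal brain (26.75). The 3 ranges overlapped, with MB C6 the lowest of all arrays. The log2 difference from normal brain was -0.26 ± 0.24 (SE; adjusted p = 0.352) in medulloblastoma and -0.45 ± 0.27 (adjusted p = 0.165) in glioma, so neither passed.

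Cdh5 (1433956_at; chr8:104101613-104144504), VE-cadherin of the endothelial adherens junction, had 18.5 to 50.6 in medulloblastoma (median 37.5), 22 to 44.1 in glioma (33.65) and 13.5 to 69.1 in normal brain (37.25). The 3 ranges overlapped, and normal brain spread over both tumours. The difference from normal brain was -0.02 in medulloblastoma, with a 95% interval of -0.40 to 0.35 (adjusted p = 0.917), and -0.20 in glioma, with an interval of -0.63 to 0.22 (adjusted p = 0.427). Emcn (1425582_a_at; chr3:137341062-137431069), endomucin, a sialomucin of capillary and venous endothelium, had 14.6 to 53.6 in medulloblastoma (median 39.05), 29.4 to 72.5 in glioma (37.85) and 19.3 to 58.1 in normal brain (38.15). Here too the ranges overlapped, and the differences from normal brain, -0.10 (interval -0.51 to 0.31) and 0.04 (interval -0.42 to 0.51), did not pass.

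Of the VEGF receptors, Kdr (1449379_at; chr5:75932827-75979072), VEGFR2, is the one that carries the growth signal of VEGF-A into the endothelial cell. It had 15.6 to 51.5 in medulloblastoma (median 35.6). In glioma it had 47.1 in the Rictor-null tumour, 42.4, 55, 68.4 and 69.4 in the Rictor-heterozygous ones and 81.6 in the p53-null-only one. In normal brain it had 13.4 to 40.8 (median 34.05). All 6 gliomas lay above all 12 normal brains, a separation that 18.7% of all tested genes showed in this comparison. No other member separated any pair of tissues, where 16.7% of all genes did so between medulloblastoma and normal brain and 6.19% between medulloblastoma and glioma. For Kdr 7 of 10 medulloblastomas lay below all gliomas. Kdr rose by 0.74 ± 0.19 on the log2 scale in glioma against normal brain (adjusted p = 0.00218). With the title code as a replicate block in the limma fit, a setting described at the end, the rise was 0.63 (adjusted p = 0.0551). In medulloblastoma the difference from normal brain was 0.09 ± 0.17 (adjusted p = 0.65). Medulloblastoma differed from glioma by -0.64 ± 0.20 (adjusted p = 0.0191), the 1 member called of 9 in that comparison, where 28.4% of all genes were called (38.8% at an unadjusted p under 0.05). That last call rested on few arrays: the adjusted p was 0.105 without GL A4 (-0.52), 0.0527 without MB B4 (-0.57) and 0.241 without the Ttr-rich arrays described below (-0.48).

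Flt1 (1451756_at; chr5:147561604-147726438), VEGFR1, binds VEGF-A tightly and signals weakly, and its soluble form holds the ligand away from Kdr. It had 28.7 to 107.4 in medulloblastoma (median 50.1), 53.9 to 93.1 in glioma (74) and 48.2 to 165.7 in normal brain (113.15). All 10 medulloblastomas and all 6 gliomas lay below the normal median, though the ranges overlapped, NB C1 being the lowest normal array. Flt1 fell by 0.83 (SE 0.175, adjusted p = 0.000178) in medulloblastoma and fell by 0.59 ± 0.20 (adjusted p = 0.0148) in glioma. Of its other 3 probe sets, 1419300_at fell as well, with differences of -1.24 and -0.92, and 1440926_at with -0.88 and -0.55, in the same comparisons, all called among 26001 probe sets. The dimmest, 1454037_a_at, differed by -0.32 in medulloblastoma (adjusted p = 0.0742) and by 0.20 in glioma (adjusted p = 0.352), with the opposite sign in glioma. The annotation used here does not say which Flt1 transcripts each probe set reads.

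Tek (1418788_at; chr4:94739086-94874976), the angiopoietin receptor TIE2, had 19.9 to 265.9 in medulloblastoma (median 42.7), 18.3 to 37.5 in glioma (26.45) and 21 to 73.2 in normal brain (47.15). MB C4 alone stood at 265.9, the next medulloblastoma being MB C1 at 80. All 6 gliomas lay below the normal median, and 8 of 12 normal brains lay above every glioma. The difference from normal brain was 0.22 ± 0.28 in medulloblastoma (adjusted p = 0.518) and -0.57 ± 0.32 in glioma (adjusted p = 0.142), and neither passed; without MB C4 the glioma difference was -0.63 with an adjusted p of 0.0282. Tie1 (1416238_at; chr4:118471191-118489849), the partner of TIE2 with no high-affinity ligand, was at 0.4 to 6.5 in medulloblastoma, 0.6 to 9.6 in glioma and 0.2 to 7.9 in normal brain. These values were at the bottom of the array, where the mean of Tie1 stood at the 8.6th percentile of all probe sets, so its level in any tissue was not measurable with this probe set.

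Of the barrier genes, Cldn5 (1417839_at; chr16:18776847-18778262) encodes claudin-5, the main tight junction strand protein of brain endothelium. It had 67 to 317.9 in medulloblastoma (median 172.5), 107.5 to 341.5 in glioma (226.15) and 90.2 to 212.2 in normal brain (148.2). The highest 3 medulloblastomas and the highest 3 gliomas lay above every normal brain, and MB C6 lay below every one. The log2 difference was 0.08 ± 0.20 in medulloblastoma (adjusted p = 0.74) and 0.49 ± 0.23 in glioma (adjusted p = 0.0767). The glioma value passed in some settings, for example without GL B3 (0.66, adjusted p = 0.0166) or without MB C6 (0.52, adjusted p = 0.0411).

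Slco1a4 (1420405_at; chr6:141805438-141856284) encodes OATP1A4, an organic anion transporter of brain capillaries that is also made by choroid plexus epithelium. In medulloblastoma it had 77.3, 95.4, 155, 135.2 and 202.7 in the Rictor-null tumours C1, C2, C4, C5 and C6, 170.9 and 192.1 in the Rictor-heterozygous ones and 143.8, 172.5 and 114.5 in the p53-null-only ones. Glioma had 108.2 to 410.5 (median 228.55) and normal brain 186.2 to 684.2 (median 398.6). Of the normal brains 11 of 12 lay above every medulloblastoma, the exception being NB A6 at 186.2. Slco1a4 fell by 1.31 ± 0.21 in medulloblastoma (0.404 times, adjusted p = 6e-06) and fell by 1.01 ± 0.24 in glioma (0.496 times, adjusted p = 0.000947). The difference between the tumours, -0.30 ± 0.26, did not pass (adjusted p = 0.422).

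Abcb1a (1419759_at; chr5:8567091-8748575) encodes P-glycoprotein, the efflux pump on the blood side of brain endothelium that returns many drugs to the blood. In medulloblastoma it had 24.9 to 65 (median 41.05), in glioma 34.9 to 93.8 (median 59) and in normal brain 33 to 232.6 (median 107.1). Every tumour lay below the normal median, and 10 of 12 normal brains lay above every medulloblastoma; NB C1 at 33 was the lowest. Abcb1a fell by 1.13 ± 0.23 in medulloblastoma (adjusted p = 0.000121) and fell by 0.96 ± 0.26 in glioma (adjusted p = 0.00318). Its other probe set, 1419758_at, fell by 1.40 (adjusted p = 1.57e-06) and fell by 1.05 (adjusted p = 0.000561). Abcb1b, the close paralogue of Abcb1a that other cells carry, rose by 1.73 in medulloblastoma (57.4 ± 30.6 against 12.7 ± 6.47 in normal brain) and by 1.96 in glioma (71.0 ± 32.5 against the same).

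**Figure D2:**
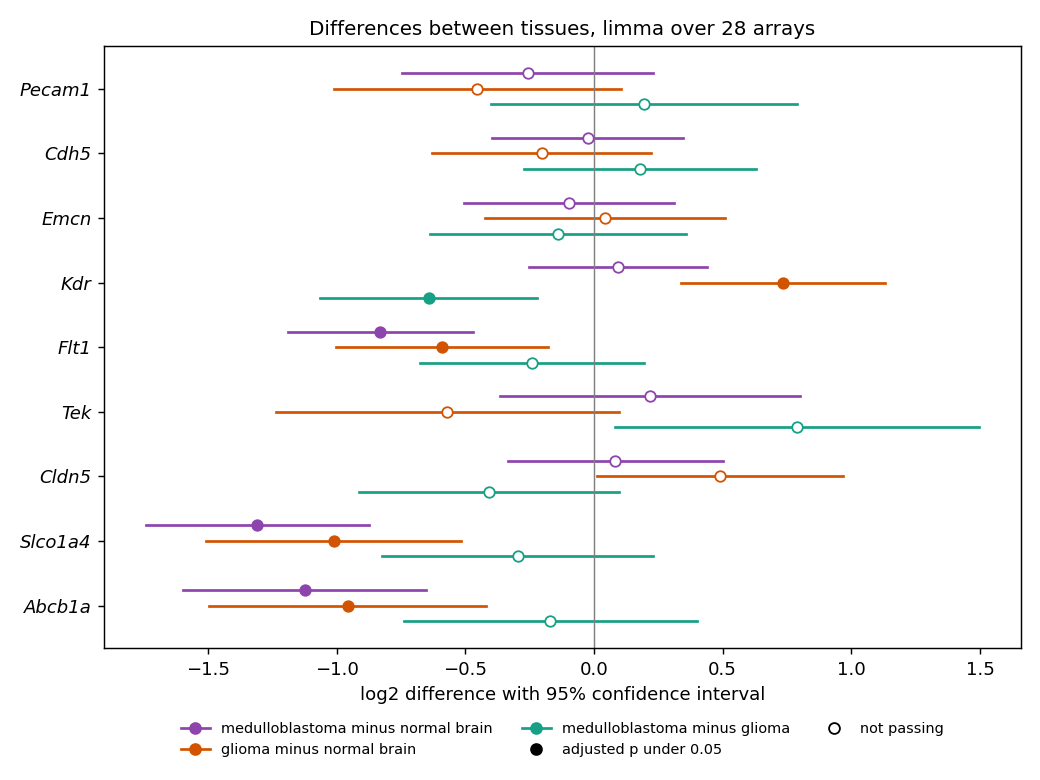
Log2 difference between tissues (horizontal axis, points) with 95% confidence interval (lines) for the 9 tested genes; filled points passed an adjusted p under 0.05. Slco1a4 and Abcb1a lay near -1 in both tumours, Flt1 at -0.83 and -0.59, and Kdr at 0.74 in glioma with 0.09 in medulloblastoma.

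Choroid plexus transcripts also differed between the tissues. The 7 measured choroid plexus markers summed to 71.7 to 10023.4 in medulloblastoma, 47.7 to 234.6 in glioma and 242.9 to 10575.8 in normal brain; 3 fell and 1 rose in medulloblastoma, where 64.2% of all genes were called, and 6 fell in glioma, where 53.9% were. Without the arrays on which Ttr passed 1000, a setting added after the data were seen that keeps only 4 normal brains, Slco1a4 differed from normal brain by -0.88 ± 0.36 in medulloblastoma (adjusted p = 0.0584) and by -0.59 ± 0.38 in glioma (adjusted p = 0.239). Abcb1a then differed by -0.42 ± 0.31 and -0.34 ± 0.33 and Flt1 by -0.19 ± 0.25 and -0.09 ± 0.27, so that no fall passed, while Kdr in glioma was 1.02 ± 0.30 (adjusted p = 0.0137). The normal brains with little Ttr were C1, B1, A6 and Z2, and Abcb1a on them was 33, 108.3, 74.5 and 93.3. Slco1a4 was 331.6, 330.4, 186.2 and 495.7 on the same 4, with Z2 above the median of normal brain and the other 3 below it. Flt1 was 48.2, 71.6, 122.7 and 112.5, with A6 above that median. The part of choroid plexus in the falls was not tested beyond this setting. NB C1, the normal brain with the lowest sum of the 9 members, is 1 of these 4, and the wild-type Z2 adds nothing to the tissue differences because it has a genotype term of its own. Of 8 astrocyte markers 7 fell in medulloblastoma (median -1.92) and 4 fell in glioma (median -1.13), and 0 were called higher in either. In glioma 25.5% of all genes were called lower, a smaller share than that of these markers. In glioma Gfap differed by 0.76 (adjusted p = 0.164) and Aqp4 by 0.35 (adjusted p = 0.569), neither passing. The astrocyte markers had summed levels of 1644.7 to 7813.3 in medulloblastoma, 4408.7 to 11421.5 in glioma and 9718.1 to 17003.9 in normal brain. Ttr was at 0 on no array (5.1 to 8734.3 in medulloblastoma, 10.4 to 146.5 in glioma and 32.8 to 9559.9 in normal brain), nor was Aqp4 (45.1 to 997, 322.6 to 2722.8 and 231.3 to 1454.4 in the same order of tissues). The part of astrocytes in the falls was not tested.

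A measure of RNA quality differed between the tissues as well. The ratio of 3' to 5' actin signal was 2.55 ± 0.83 in medulloblastoma (1.49 to 4.38), 2.23 ± 0.46 in glioma (1.73 to 2.78) and 3.74 ± 1.42 in normal brain (1.99 to 6.21), while that of Gapdh was 1.26 ± 0.26, 1.39 ± 0.27 and 1.32 ± 0.48 in the same order of tissues. NB B2, the highest array for the summed members, had 6.01 for actin and the highest Gapdh ratio, 2.58. Without NB B2 the falls still passed: Slco1a4 differed by -1.26 in medulloblastoma and -0.94 in glioma, Abcb1a by -1.05 and -0.84 and Flt1 by -0.79 and -0.52. The part of RNA quality in the tissue differences was not tested.

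The title codes carry a prefix, YZ or YZ2, that splits the arrays into 2 sets. Within the 14 YZ arrays Slco1a4 fell in medulloblastoma (-1.73) and glioma (-1.51), as did Abcb1a (-1.57 and -1.53), while Flt1 at -0.89 and -0.61 did not pass (adjusted p = 0.0645 and 0.154). Kdr in glioma rose by 0.73 there (adjusted p = 0.0196). Within the 14 YZ2 arrays, which hold only 2 gliomas, Slco1a4, Abcb1a and Flt1 fell in medulloblastoma, with differences of -1.15, -0.91 and -0.85. No member passed for glioma among them: Slco1a4 differed by -0.33, Abcb1a by -0.48, Flt1 by -0.76 and Kdr by 0.50.

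Set against Cdh5 on the same array, the tissues differed in the same direction. The log2 ratio of Slco1a4 to Cdh5 was 1.79 ± 0.63 in medulloblastoma, 2.43 ± 0.96 in glioma and 3.28 ± 0.55 in normal brain (mean ± SD; its size depends on the probes, and only the change between tissues is read). For Abcb1a it was 0.17 ± 0.40, 0.66 ± 0.63 and 1.38 ± 0.49 in the same order of tissues. For Flt1 it was 0.53 ± 0.48, 1.01 ± 0.26 and 1.38 ± 0.33. The ratio of Kdr to Cdh5 was -0.07 ± 0.35 in medulloblastoma, 0.75 ± 0.22 in glioma (0.59 to 1.12) and -0.14 ± 0.30 in normal brain (-0.68 to 0.25). Kdr alone already separated glioma from normal brain, as given above. Cdh5 itself did not pass in either tumour, so the ratios largely restate the differences of Slco1a4, Abcb1a, Flt1 and Kdr. They are no second finding, and they rest on the brighter Cdh5 probe set alone. These ratios describe unequal levels within an array and were not tested.

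**Figure D3:**
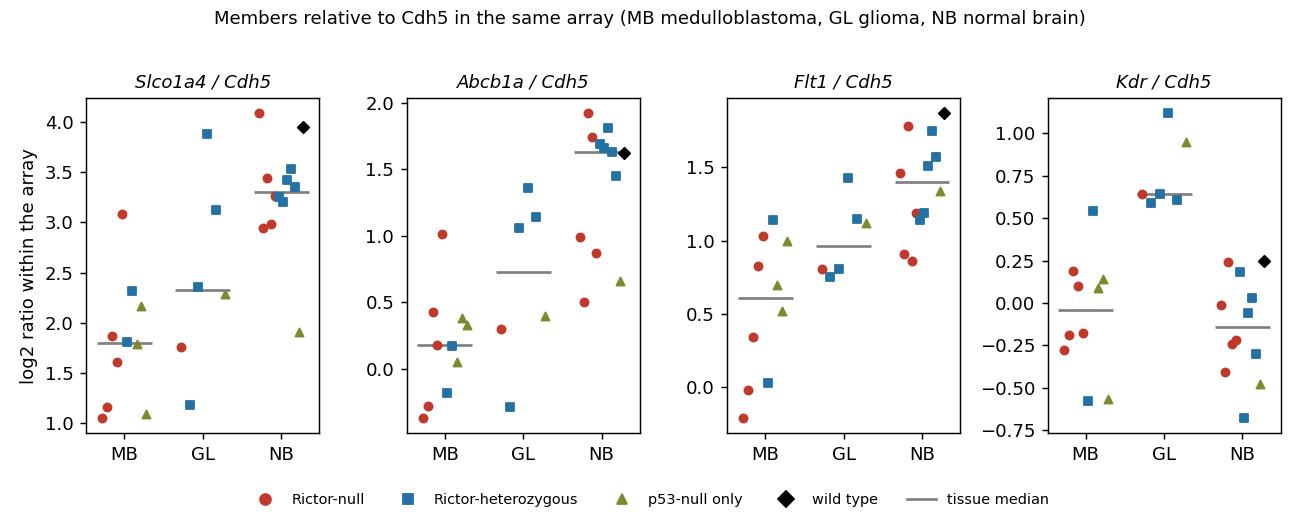
Log2 ratio of Slco1a4, Abcb1a, Flt1 and Kdr to Cdh5 on the same array (vertical axis, log2), by tissue, with the genotype as symbol and the tissue median as a grey line. The median for Abcb1a was 0.17 in medulloblastoma, 0.73 in glioma and 1.63 in normal brain.

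Rictor itself was compared first for the genotypes. In Rictor-null medulloblastomas its intensity was 68.8, 158.7, 190.4, 202.1 and 235.8, against 260.8 and 276.8 in Rictor-heterozygous and 222.7, 257.9 and 273.3 in p53-null-only ones. In the Rictor-null glioma it was 144.4, against 192.5 to 315.5 in the heterozygous ones. In Rictor-null normal brain it was 213.3 to 443.9, against 250.5 to 388.6 in heterozygous brain, so these groups overlapped. Whether the Rictor probe set lies in the deleted exons was not established here.

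No member passed the test in any Rictor comparison, and in these comparisons few genes of any kind did. In Rictor-null against p53-null-only medulloblastoma 0.00718% of all genes were called (4.34% at an unadjusted p under 0.05), and in Rictor-null against Rictor-heterozygous medulloblastoma 0.00718% (1.43% unadjusted). In normal brain 0% were called (3.15% unadjusted) and in glioma, with 1 Rictor-null array, 0.0215% (4.57% unadjusted). Over all tissues together 0% were called (2.99% unadjusted), and a test of whether medulloblastoma and normal brain differed in their response to Rictor loss called 0% as well (1.90% unadjusted), with 4 of 9 members below 0. The limma adjusted p of every member was at least 0.981 in these comparisons.

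More members lay below 0 than above it in Rictor-null samples, as did the medians of several lists of other cell types. Against Rictor-heterozygous ones this held for 7 of 9 in medulloblastoma (median -0.25), 8 of 9 in glioma (-0.35) and 9 of 9 in normal brain (-0.27), where 48.7%, 53.6% and 48.2% of all genes lay below 0. The median was -0.71 in medulloblastoma, -0.37 in glioma and -0.30 in normal brain for 8 microglial genes, -0.58, -0.84 and -0.25 for 8 astrocyte genes, -0.30, -0.57 and -0.33 for 10 fibroblast and meningeal genes and -0.68, -0.55 and -0.72 for 5 leukocyte adhesion genes, in the same order of tissues. For 14 mural cell genes it was -0.22, -0.02 and -0.09, and for 27 other endothelial genes -0.36, -0.32 and -0.27. Not every list lay below 0: the median was 0.07, 0.08 and -0.17 for 15 barrier transporters and -0.41, 0.12 and 0.14 for 7 neuronal genes. The members correlate across arrays, so they are not 9 independent values. Over tissues, Flt1 differed by -0.41 ± 0.17 (unadjusted p = 0.0254), Slco1a4 by -0.46 ± 0.21 (0.0376) and Abcb1a by -0.50 ± 0.23 (0.0371), all with an adjusted p of 1. In normal brain Abcb1a had 33, 63.4, 126.2, 158.5 and 82.3 in Rictor-null arrays, against 108.3, 232.6, 155.2, 117.3 and 105.9 in heterozygous ones. Of the 5 Rictor-null values 3 were below every heterozygous one, while 126.2 and 158.5 lay among them, and the difference was -0.71 ± 0.36 (adjusted p = 1).

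In medulloblastoma Cldn5 had 133.6, 115.9, 232.6, 193.8 and 67 in Rictor-null tumours, 128.2 and 154.3 in Rictor-heterozygous ones and 317.9, 190.7 and 278.3 in p53-null-only ones. The p53-null-only tumours were the higher, with overlap at 190.7. Set against the p53-null-only tumours, the Rictor-null ones differed by -0.88 ± 0.37, with an unadjusted p of 0.0344 and an adjusted p of 0.981. Tek ran the other way there, with 80, 45.4, 265.9, 44.5 and 40.9 in Rictor-null tumours against 19.9, 39.3 and 27.7 in p53-null-only ones. The difference of 1.18 had an unadjusted p of 0.0514 and an adjusted p of 0.981. In the 1 Rictor-null glioma Slco1a4 was 109.8, against 108.2, 240.2, 410.5 and 272.8 in the heterozygous ones, of which GL B1 was the lower.

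**Figure D4:**
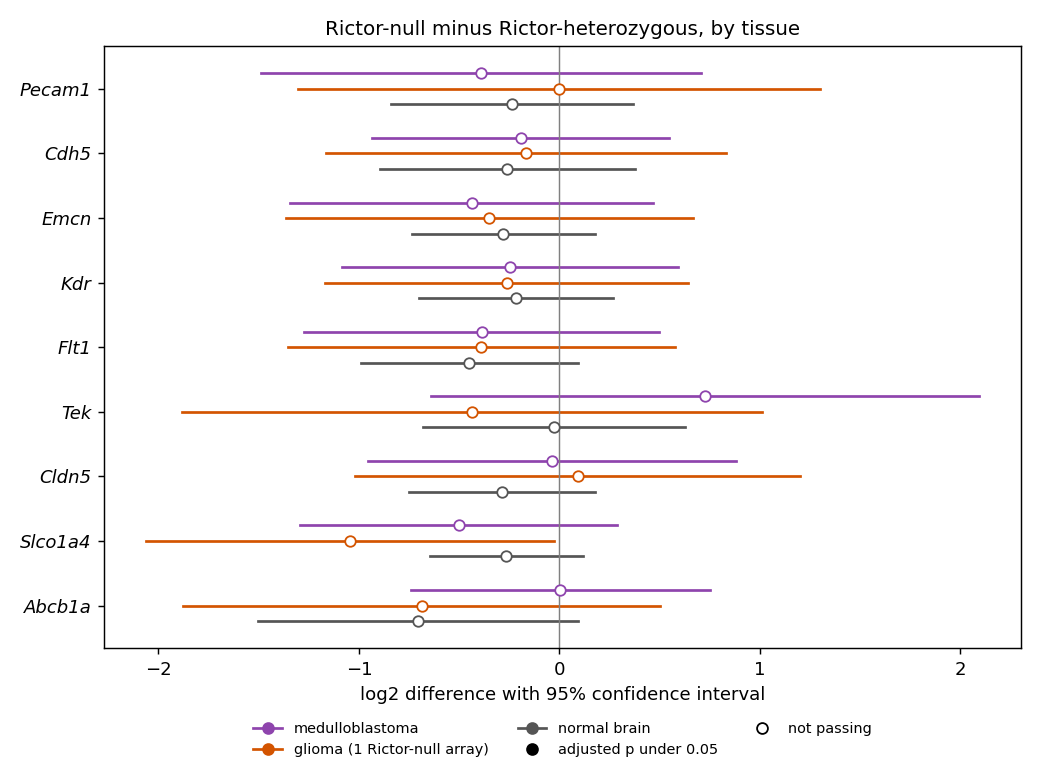
Log2 difference between Rictor-null and Rictor-heterozygous samples (horizontal axis, points) with 95% confidence interval (lines), in medulloblastoma, glioma (1 Rictor-null array) and normal brain. All points are open, since no gene passed, and Abcb1a in normal brain lay at -0.71.

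After the mean of each tissue was removed, most pairs of members correlated positively across the 28 arrays. Of their 36 pairs 33 had a Pearson r above 0, with a median of 0.40 and a range of -0.25 to 0.74. Against the mean of the others, Kdr had an r of 0.78 (Spearman rho 0.74), Abcb1a 0.69, Flt1 0.65, Pecam1 0.64, Cdh5 0.63, Emcn 0.53 and Cldn5 0.49, while Tek had 0.31 and Slco1a4 0.24. Arrays that share a scaling and a tissue piece share such variation, so these values describe the arrays and carry no test. NB B2 was the highest normal brain when the 9 were summed, with 1572.4, and NB C1 the lowest, with 601. Slco1a4 stood apart on single arrays: MB C6 was lowest among medulloblastomas for Pecam1, Cdh5, Kdr and Cldn5 but highest for Slco1a4 (202.7), and GL B3 was lowest among gliomas for Pecam1, Cdh5 and Cldn5 but highest for Slco1a4 (410.5). Aqp4, an astrocyte endfoot channel, was 945.3 on MB C6 and 2722.8 on GL B3. On MB C6 it was not the highest of the medulloblastomas. Both arrays were picked for their Slco1a4 values, and a link of Slco1a4 to Aqp4 was not tested.

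The genes most like the mean of the members over the 28 arrays were led by Mmrn2, an endothelial matrix protein, with an r of 0.85 (0.81 within medulloblastoma, 0.98 within glioma and 0.87 within normal brain). Esam, an endothelial adhesion molecule, and Rhoj, an endothelial GTPase, had 0.76 each, as did Igfbp7, a secreted protein of the vessel wall. Adgrf5 and Lama2 followed at 0.75, Adgrl4 and Fam199x at 0.73 and Gpr182 and Cgnl1 at 0.72. Of these 10 genes 4 were in the list of other endothelial genes. The median r was 0.50 over the 27 other endothelial genes, 0.46 over 5 leukocyte adhesion, 0.40 over 10 fibroblast and meningeal, 0.36 over 15 angiogenic, 0.33 over 14 mural cell, 0.32 over 14 sprouting, 0.30 over 11 junction, 0.27 over 11 WNT and 0.26 over 15 transporter genes. It was 0.22 over 7 choroid plexus and 0.10 over 8 astrocyte genes, -0.17 over 8 microglial and -0.28 over 7 neuronal genes, and 0.00 over all 13922 other genes.

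The counts that follow are read against the 64.2% of all genes called in medulloblastoma and the 53.9% in glioma. The setting without the Ttr-rich arrays is given for the members only. The part of choroid plexus in the differences of other genes, such as Plvap and Slc22a8, was not tested. Among further endothelial genes, medulloblastoma against normal brain gave 5 higher, 8 lower and 14 not passing of 27 (median -0.31), and glioma gave 4 higher, 5 lower and 18 not passing (median -0.09). Sox18, a factor of vessel development, rose by 3.0 in medulloblastoma (447 ± 288 against 41.8 ± 21.9 in normal brain), and S1pr1, a sphingosine receptor that astrocytes also carry, fell by 1.53. In glioma Ets1, a transcription factor of activated endothelium and other cells, rose by 2.17 and Cd93 rose by 1.60. Sprouting and tumour vessel genes gave 7 higher and 2 lower of 14 in medulloblastoma (median 0.62) and 8 higher and 1 lower in glioma (median 0.89). Aplnr, the apelin receptor, rose by 2.91 in medulloblastoma and 2.78 in glioma. Col4a1, a basement membrane collagen, rose by 1.48 in medulloblastoma, where Plvap, which marks leaky fenestrated vessels, fell by 1.93 (23.3 ± 15.7 against 106 ± 24.5 in normal brain). Plvap fell in glioma as well, by 1.05. Cxcr4, which granule neuron precursors also carry, rose by 4.33 in medulloblastoma.

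Barrier transporters split. Of 15 other such genes 5 rose and 8 fell in medulloblastoma (median -0.43), and 7 rose and 4 fell in glioma (median 0.71). Slc22a8, an organic anion transporter, fell by 1.66 in medulloblastoma (10.9 ± 4.43 against 43.4 ± 8.49 in normal brain) and fell by 1.40 in glioma. Slc7a5, the large amino acid transporter that growing tumour cells also carry, rose by 1.55 and 2.0. Mfsd2a, the lipid transporter that limits transcytosis in brain endothelium, fell by 1.36 in medulloblastoma and rose by 1.01 in glioma, and medulloblastoma differed from glioma by -2.38 (77.7 ± 28.4 against 490 ± 296, adjusted p = 3.76e-05). Among 11 junction proteins 4 rose and 2 fell in medulloblastoma, and 4 rose and 1 fell in glioma. Ocln, occludin, fell in both tumours (-1.15 in medulloblastoma and -1.35 in glioma), and Tjp1, the scaffold ZO-1 of many cell types, rose by 1.17 in glioma.

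Of 11 genes of the WNT programme of the barrier 3 rose and 2 fell in medulloblastoma, and 2 rose and 2 fell in glioma. Sox17, an endothelial target of that signal, fell by 1.32 in medulloblastoma (33.3 ± 17.1 against 93.0 ± 27.1 in normal brain) and fell by 1.46 in glioma. Fzd4, the norrin and WNT receptor, fell by 0.85 in medulloblastoma. Apcdd1, of the same list, rose by 1.72 in medulloblastoma (743 ± 505 against 170 ± 83.7 in normal brain), and Lrp6 rose by 1.26. In glioma Tspan12 rose by 1.61, Lrp6 rose as well and Lef1 fell by 0.97. The list thus moved in both directions in each tumour. Among 15 angiogenic ligands and partners 3 rose and 6 fell in medulloblastoma, and 3 rose and 5 fell in glioma. Angpt2, the ligand of TIE2 that loosens vessels, rose by 1.14 in glioma (90.3 ± 67 against 29.8 ± 6.67 in normal brain), and Nrp1, a VEGF co-receptor that neurons also carry, fell by 1.14 in medulloblastoma. Of 5 leukocyte adhesion genes 1 rose in medulloblastoma (Icam1, 1.08, named after its value was seen), and 2 rose and 2 fell in glioma, where Vcam1 rose by 0.92 and Ackr1, of venules, fell by 1.80.

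Mural cell genes gave 2 higher, 4 lower and 8 not passing of 14 in medulloblastoma (median -0.27) and 1 higher, 3 lower and 10 not passing in glioma (median -0.10). Atp13a5 and Vtn, both pericyte genes of brain, fell in medulloblastoma (-1.84 and -0.91) and in glioma (-1.0 and -1.17). Foxs1 and Abcc9, of the same mural list, rose in medulloblastoma (0.91 and 0.88). The gene that rose in glioma was Cspg4 (3.45), which oligodendrocyte precursors and glioma cells carry as well as pericytes. Of 10 fibroblast and meningeal genes 2 rose and 2 fell in medulloblastoma, and 1 rose and 2 fell in glioma. Neuronal genes fell in 5 of 7 cases in medulloblastoma and 6 of 7 in glioma. Of 8 microglial genes 1 rose and 3 fell in medulloblastoma and 1 rose in glioma, and of 3 blood cell genes 1 (Ptprc) rose in each.

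**Figure D5:**
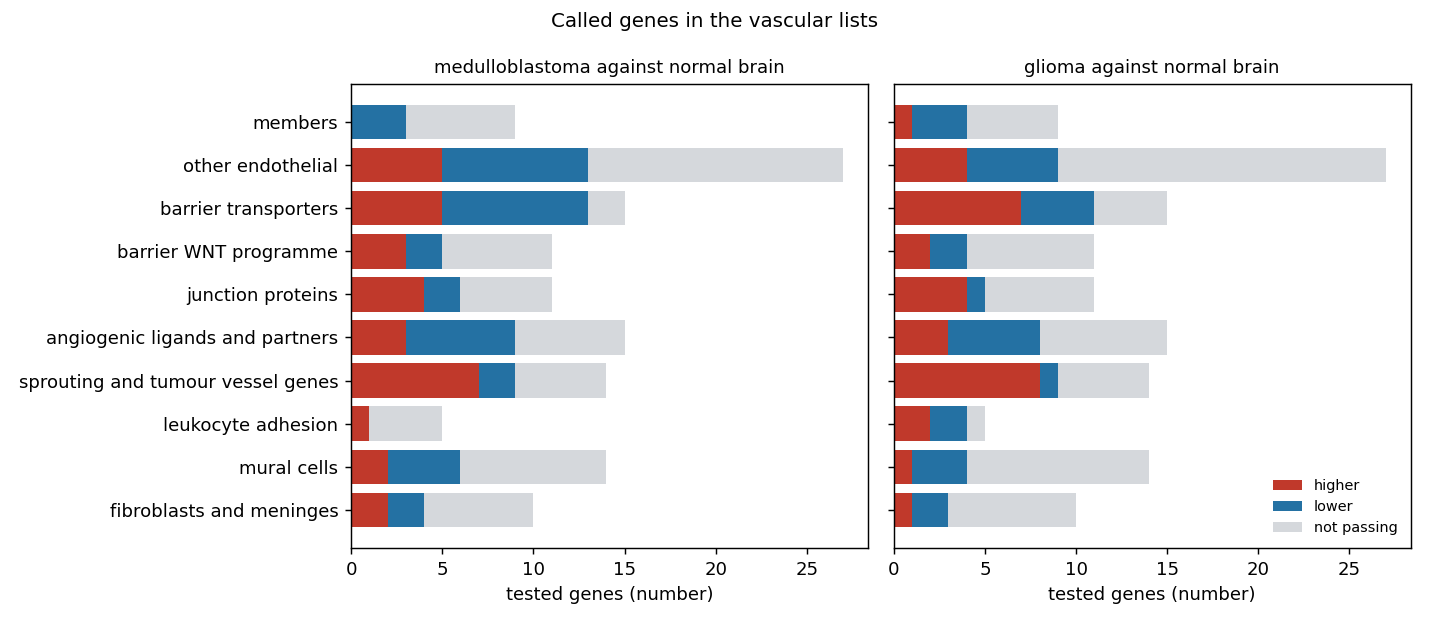
Number of tested genes in each vascular list (horizontal axis, from 0) that were higher (red), lower (blue) or did not pass (grey) in medulloblastoma (left) and glioma (right) against normal brain. Of the 10 genes described here the bars show the 9 tested, with 3 lower in medulloblastoma and 1 higher and 3 lower in glioma.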

How the data were processed

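RNA of 28 mouse samples was read on one-colour arrays. The deposited values are MAS5 intensities, which the authors computed and scaled to a trimmed mean near 100 per array, as the files show (GCOS and MAS5 are named in the submitters' processing notes, with no version). Such signals are linear and come without a separate background estimate, and the number of arrays limits their precision. Of 45101 probe sets, 34945 had 1 gene symbol, 932 several and 9160 none, with 64 control probe sets left out. Intensities were turned into log2(intensity + 6.3), the brightest probe set stood for each gene, and genes were tested if the mean of that probe set passed the 30th percentile, taken over every non-control probe set, with limma 3.58.1 in R 4.3.3 (lmFit, eBayes with a trend, two-sided, Benjamini-Hochberg over 13931 genes, threshold 0.05). Tissue differences came from an additive fit of tissue and genotype, Rictor differences in medulloblastoma and in normal brain from fits within that tissue, and those in glioma and between tissues from a fit of all group means, in which the lone Rictor-null glioma is assumed to vary like the other groups. The scripts were tested on simulated data. All 10 genes are named; from each other list up to 4 called genes of largest difference per tissue comparison could be named, and the 10 genes most correlated with the members. The members, lists and tests were chosen with earlier results of these data known. Leaving out arrays with Ttr above 1000 was chosen after seeing the data. The other alternatives changed the pseudocount, filter, scaling, probe set choice and arrays used. Tables were handled with Python 3.11.15 and pandas 2.3.3.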

Additional observations from a re-analysis of the deposited data

Results flagged for a closer look

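Of 40 groups of 4 or 5 arrays tested for a sample far from the others, 4 had one, and chance alone gives about 1 in 20 groups (Dixon's test). Pecam1 was 2.3 on MB C6, against 17.6 to 25.4 on the other Rictor-null medulloblastomas, and Cdh5 was 18.5 on the same array, against 34.1 to 39.9. Kdr was 13.4 on NB C1, against 30.9 to 35.6 on the other Rictor-null normal brains. Tie1 was 9.6 on GL B2, against 0.6 to 1.6 on the other Rictor-heterozygous gliomas, all of them at the dim end of the array.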

How the results depend on the processing

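Each tissue difference was recomputed under 43 alternatives, and no difference that passed the test turned its sign. Most of these left out a single array, at times one of a tissue outside the comparison, and several changed only the pseudocount, filter or scaling. The alternatives are thus much alike, and their number is no count of independent checks. Slco1a4, Abcb1a and Flt1 fell in medulloblastoma under 42, 42 and 41 of them, with log2 differences there of -1.73 to -1.15, -1.57 to -0.84 and -0.92 to -0.62. Without the Ttr-rich arrays they were -0.88, -0.42 and -0.19 and did not pass. In that setting, a choice made after seeing the data that leaves 18 arrays, 0 members were called in medulloblastoma against normal brain, 1 in glioma against normal brain (Kdr) and 0 between the tumours. Over all genes 6078, 5233 and 2147 were then called, against 8948, 7510 and 3959 with all arrays. Within the YZ2 arrays 0 members were called in glioma against normal brain and 0 between the tumours, with 3372 and 1119 genes called in all. Within the YZ arrays 0 were called between the tumours, with 1873 genes in all, and 2 in medulloblastoma against normal brain, with 5439 in all. Leaving out 1 array at a time left 3 members called in medulloblastoma against normal brain, 4 to 5 in glioma against normal brain and 0 to 1 between the tumours, where it was 0 without MB B4 or GL A4. Tumour and normal arrays share title codes, and same-coded arrays deviated together by r = -0.041 to 0.321. The codes were not taken as pairs in the main fit, though such values do not show that the arrays are unpaired. All 4 Rictor-null codes correlated best with their own number, a hint from the data and not the design. With the code as a replicate block, 3, 3 and 0 members were called in the 3 comparisons and 8298, 6270 and 1093 genes in all. As a random block, 3, 4 and 1 members were called. Under the block Kdr in glioma was 0.63 (adjusted p = 0.0551), and medulloblastoma against glioma was -0.57 (adjusted p = 0.315). Cldn5 in glioma passed under 5 alternatives (adjusted p from 0.0166). The cause of these changes was not tested, and the settings that left out arrays also had fewer of them. No member passed in any Rictor comparison under the settings run. Dim signal limits Tie1, and the single Rictor-null glioma limits that comparison.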
